A study of Arvicanthis niloticus with 59 samples.

Results

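Serpins are a family of proteins with a shared fold, most of which inhibit serine proteases. An inhibitory serpin offers the protease an exposed loop, and when the loop is cut the serpin changes shape and traps the protease in a covalent complex, so each molecule acts once. Many clade A, C, D and F members are secreted by the liver into the blood, where they hold clotting, fibrinolysis and leukocyte elastase in check, while clade B members stay mostly inside epithelial cells and leukocytes. A few members inhibit nothing and instead carry hormones or assist collagen folding.

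Serpin genes were taken as the table rows whose symbol is Serpin followed by a clade letter from a to i and a number, which gave 47 of 18970 genes. Clade A had 20 members, clade B 16, clade E 3, clades F and I 2 each, and clades C, D, G and H 1 each. No measured value entered this choice. By symbol, 25 of the 47 matched the RefSeq gene table of the species and 22 did not. In that table Serpinb2 and Serpinb7 are direct neighbours on chromosome 10, Serpina9 stands between Serpina12 and Serpina11 on chromosome 23, and Serpinf2 adjoins Serpinf1 on chromosome 6. The symbols Serpina1a, a1b, a1e and a1f, the Serpina3 series and the pairs Serpinb1a and b1b, b3a and b3b, and b6a and b6b follow mouse gene copies, and RSEM divides reads among similar transcripts, so the split between such rows is uncertain.

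The RNA came from 48 sites in 22 organs of Arvicanthis niloticus, the Nile grass rat, a rodent active by day, in 59 libraries of healthy tissue that had received no treatment. Animal T3F gave 38 libraries, T173F 12, T426 8 and T424 the testis library. The labels name no allele, agent, age or sex for any library; ovary came from T3F and T173F and testis from T424. The groups compared are organs, sites and animals. They place midbrain and optic nerve with eye, 1 adrenal library with kidney and another with adipose. Levels are in TPM, the share of all transcripts scaled by transcript length. In whole tissue, fewer cells of a type and less RNA per cell cannot be told apart.

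Total expected counts ran from 678819 to 41309569 per library. Several libraries held markers of a cell type that the label does not name. The library labelled lung T3F had a summed hepatocyte marker level of 153500 TPM against 130500 in liver T426, and the library labelled liver T3F had 1062, with 59270 TPM of alveolar and club cell markers. The renal pelvis library of T426 held 25630 TPM of hepatocyte markers and the cornea library 8618, with Alb at 10240 and 3789 TPM. The sum was larger in duodenum T426, at 68390 TPM, and in retinal pigment epithelium, at 34280. Alb was at 27.57 and 0 TPM in these libraries. The list holds Apoa1, which was highest in duodenum, and Ttr, highest in pigment epithelium, so the sum alone does not mark hepatocytes. Germ cell markers summed to 120300 TPM in retina T426, 44620 in hippocampus T426 and 22510 in femur T426, against 142400 in testis. The sciatic nerve library of T426 held 78900 TPM of pancreatic acinar markers. The library labelled pancreas T173F held 1553 TPM of them, against 391500 in pancreas T3F. The part of these transcripts in the results was not tested, and values with and without the libraries are given where they bear on a serpin.

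Each library expressed a limited set of serpins. Between 12 and 35 serpins were at 1 TPM or more in a library, and the median library had 21. Serpin transcripts summed to a median of 993 TPM, or 0.0993% of a library's total, and the range ran from 154.5 to 44010 TPM, which is 4.401%. Serpine2 and Serpinf1 were each the most abundant serpin in 11 libraries, Serpina3g in 7 and Serpina1a in 6. At least 1 TPM was reached in all 59 libraries by 4 serpins, namely Serpina3g, Serpinb6a, Serping1 and Serpinh1. That is 8.511% of the family, against 14.16% of all genes.

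Serpin levels were unevenly spread over the sites. The tissue specificity index tau, which is 0 for a gene at the same log level at every site and 1 for a gene found at a single site, had a median of 0.851 over the serpins against 0.505 over all genes. A tau of at least 0.9 was found for 15 serpins (31.91%), against 12.44% of all genes. Among genes that reached 10 expected counts in a library, a filter added after the data were seen, the numbers were 11 of 42 serpins (26.19%) and 9.903% of all genes. A serpin was called organ-enriched by size, with no test. Its mean in 1 organ had to be at least 1 TPM and at least 4 times each other organ's mean. By this rule 7 serpins (14.89%) were organ-enriched, a share close to the 15.8% of all genes. Serpini1 (brain), Serpini2 (pancreas), Serpina3b (eye, through the Harderian gland), Serpina5 (testis) and Serpina9 (esophagus) were among them, and the other two, Serpina1f and Serpinb9c, rested on 7 expected counts each over all libraries. Leaving out pancreas T173F and the libraries labelled lung T3F and liver T3F, 18 serpins (38.3%) were organ-enriched, again beside 15.8% of all genes. Of these 18, 11 had their highest level in liver.

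**Figure D1:**
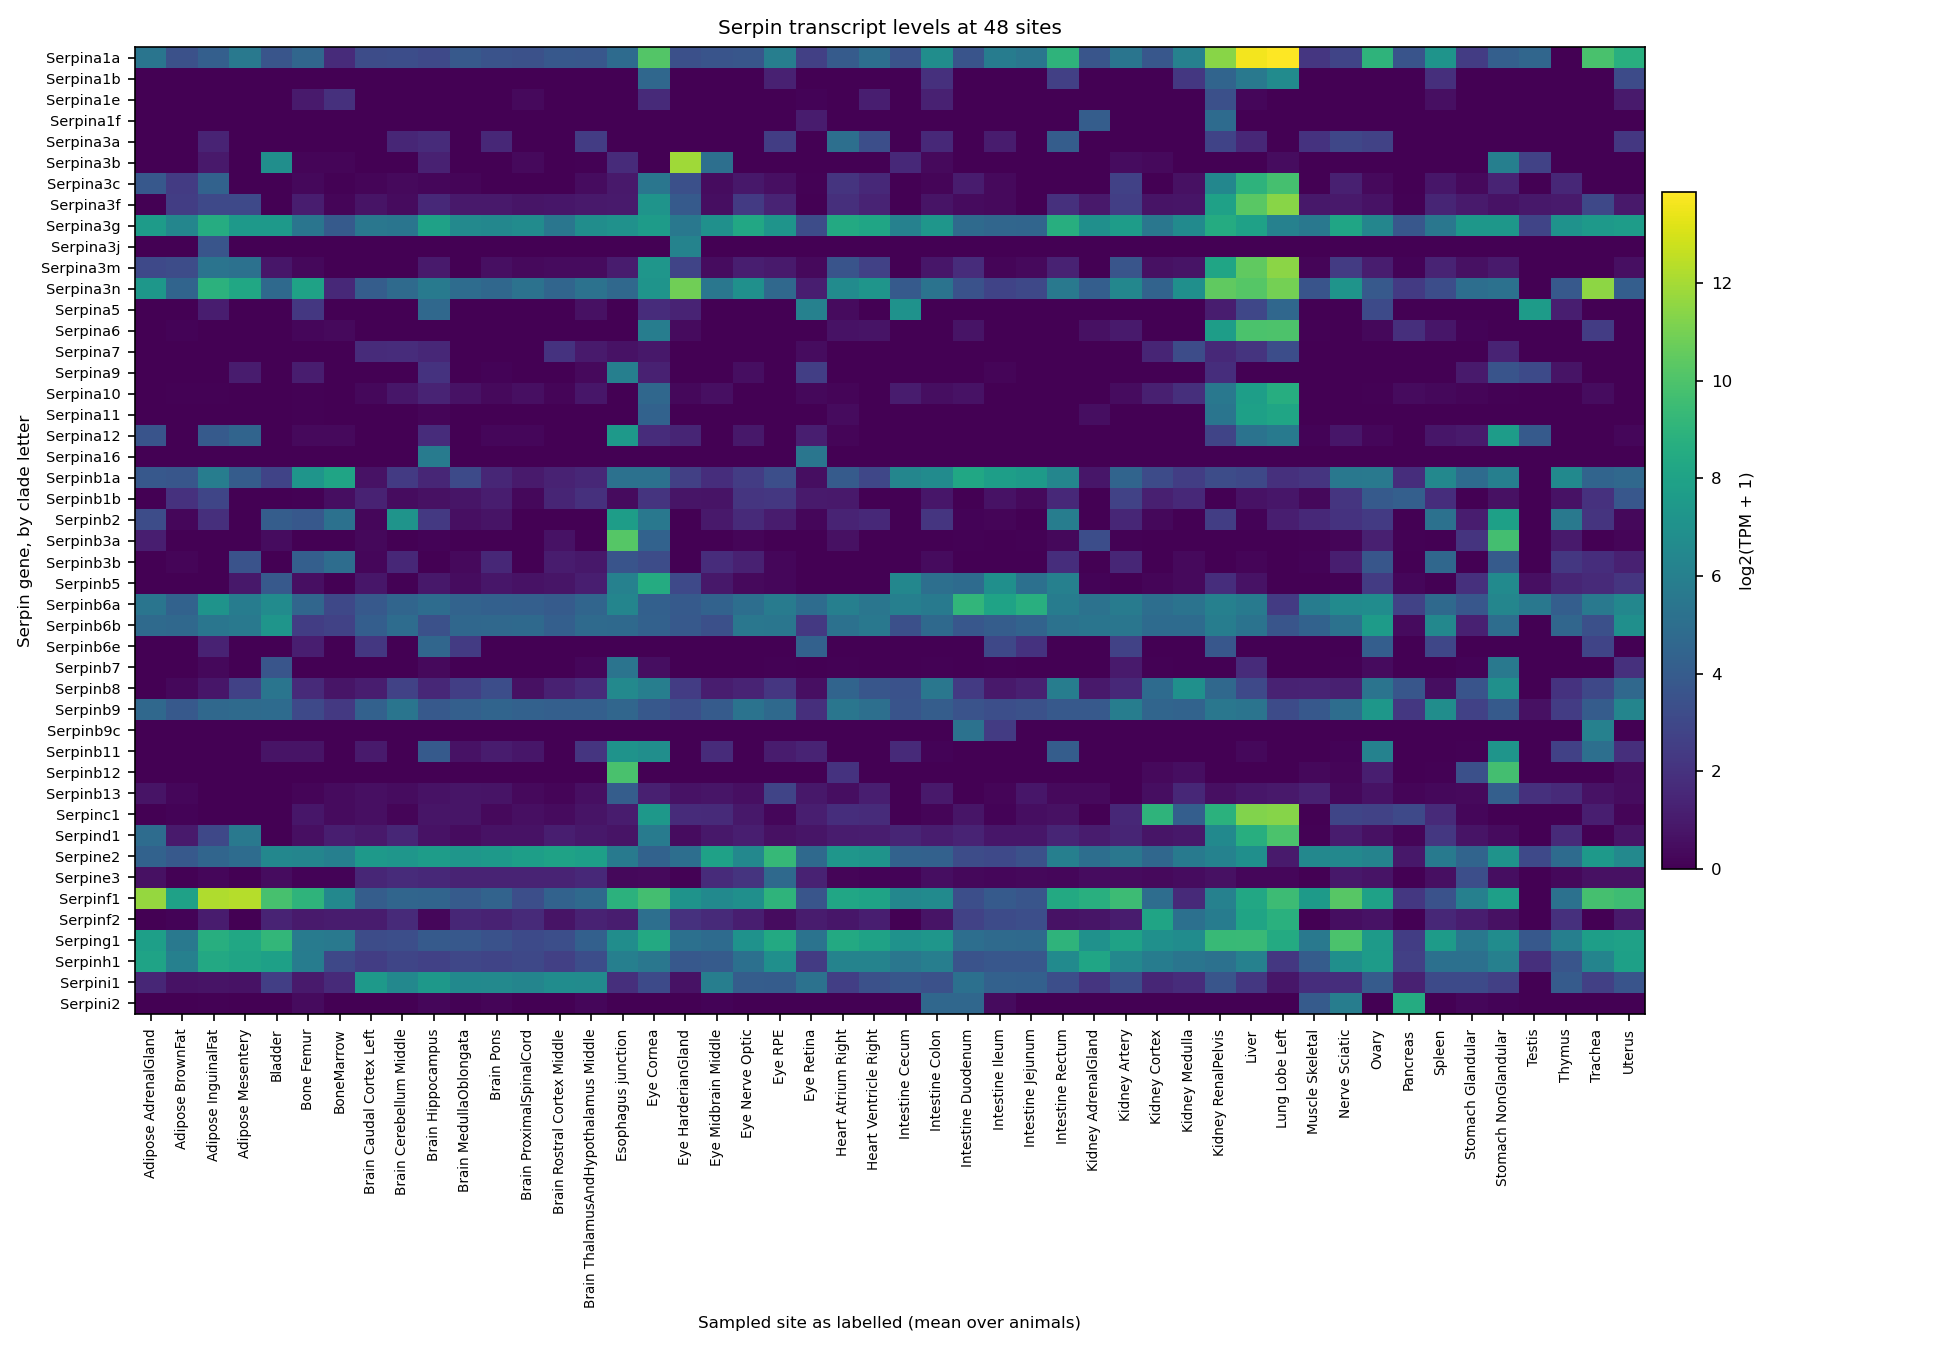
Mean transcript level of 46 serpins (rows, in order of clade letter) at the 48 sampled sites (columns, as labelled), as log2(TPM + 1) by colour. Serpinf1, Serpine2, Serping1 and Serpinh1 were present at most sites, while Serpinb12 and Serpinb3a reached their highest levels at the esophageal junction and the non-glandular stomach.

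Serpins were then compared among the 10 sites that had libraries from 2 animals: femur, hippocampus, retina, duodenum, renal pelvis, liver, skeletal muscle, sciatic nerve, ovary and pancreas. Of the 33 serpins with enough counts to be tested, 25 differed among the sites at an adjusted p below 0.05 in the quasi-likelihood test of edgeR, beside 41.4% of all 17564 genes tested. Among the 8 that did not pass were Serpinb6b, Serpina9, Serpine2, Serpine3, Serpinb2, Serpina5 and Serpina12, with adjusted p from 0.0604 to 0.465 in the edgeR test. Each site was next set against the mean of the other 9, and a call needed an adjusted p below 0.05 and a change of 2-fold or more. Over the 10 sites, 51 serpin and site pairs were higher, beside 8.85% of all gene and site pairs, and 6 were lower, beside 1.09%. Renal pelvis and liver together held 26 of the higher pairs. For 69 of the 330 pairs the fit gave no usable error because a site had next to no counts, and these could not pass. Each site had 2 animals, which were not the same pair at every site, so the p-values measure the spread between single pairs of libraries.

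**Figure D2:**
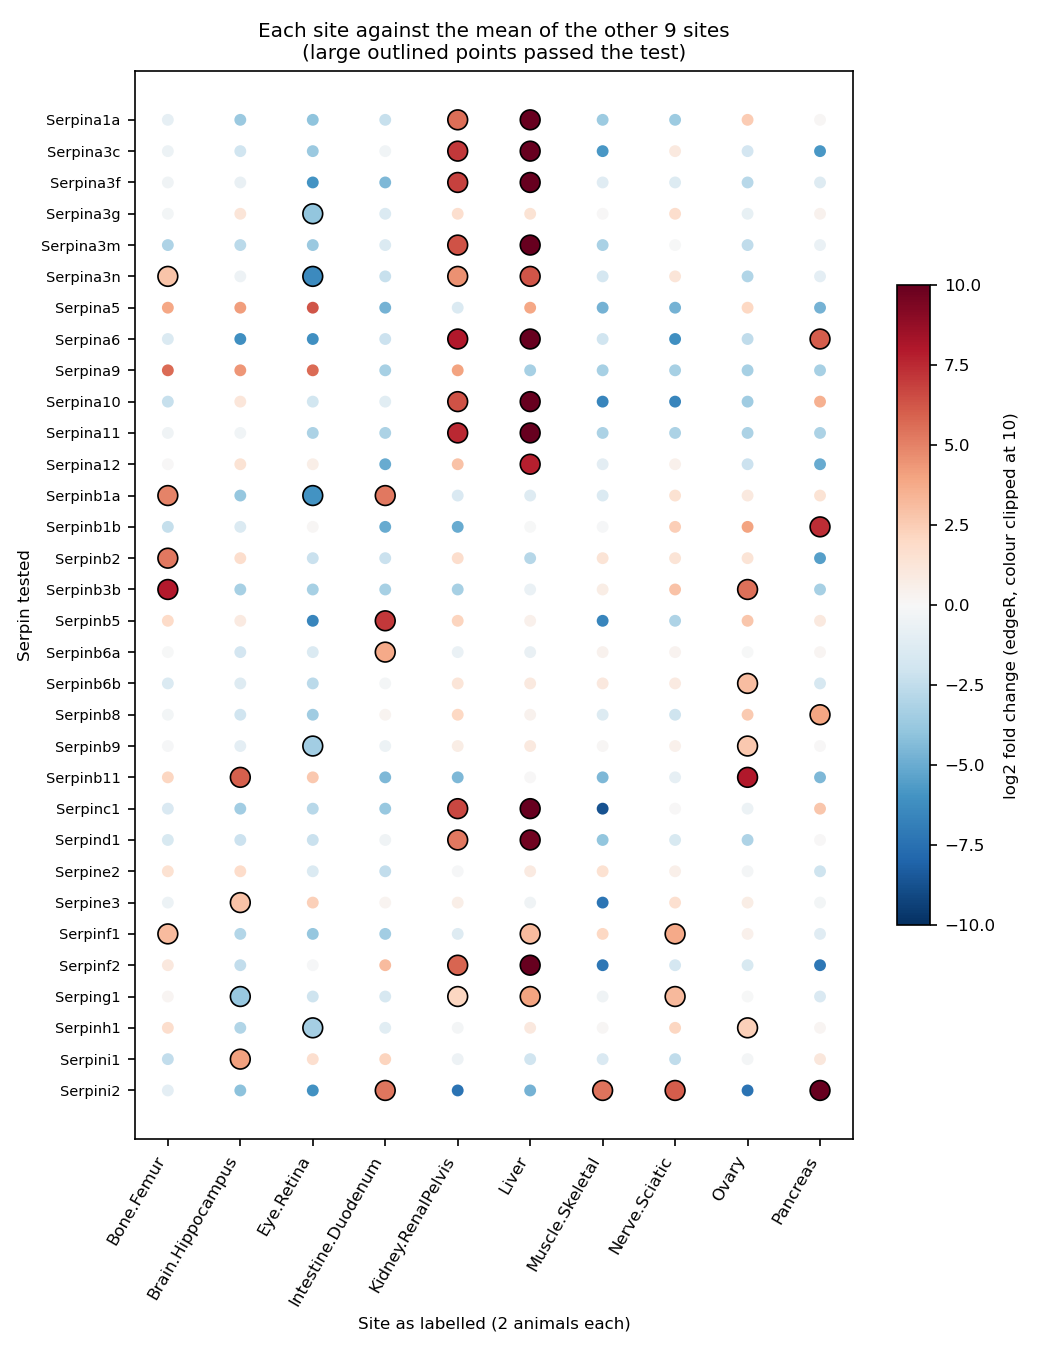
Log2 fold change of 32 tested serpins (rows) at each of the 10 replicated sites (columns) against the mean of the other 9, by colour. Large outlined points passed the edgeR test, and they are most frequent in the columns for liver (14) and renal pelvis (12), while the retina column holds 5 lower calls and no higher one.

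The highest level of any serpin was that of Serpina1a, the plasma inhibitor of leukocyte elastase, which reached 24840 TPM in liver T426 and 256.4 in the library labelled liver T3F. Serpinc1 (antithrombin, which blocks thrombin and factor X) stood at 4755 and 29.91 TPM in the same order. Serpina6, the corticosteroid carrier of plasma, stood at 1931 and 11.39 TPM. The gap between the libraries under the liver label was thus wide for these plasma serpins.

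The gap was narrower for Serping1 and Serpinf1, though not for every serpin that other tissues express. Serping1 (the inhibitor of complement C1 and plasma kallikrein) stood at 966 TPM in liver T426 and 376.8 in the library labelled liver T3F. Serpinf1 (pigment epithelium-derived factor, which lacks protease inhibition) stood at 551.7 and 93.09 TPM. Serpinf2, which was at 273.5 TPM in kidney cortex, had a wide gap, with 531.8 and 6.289 TPM.

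At the site labelled liver, 14 serpins were higher by edgeR than the mean over the remaining 9 sites, beside 8.08% of all genes, and 0 were lower, beside 0.478%. The serpin median was a log2 difference of 1.44 against 0.04 over all genes. The called members were Serpina1a, a3c, a3f, a3m, a3n, a6, a10 (which inhibits activated factor X with protein Z), a11, a12, Serpinc1, Serpind1 (heparin cofactor II, a thrombin inhibitor), Serpinf1, Serpinf2 (the plasmin inhibitor) and Serping1. Serpina6 rose by 12.49 on the log2 scale (SE 1.59, adjusted p = 0.000502) and Serpina1a by 10.09 (SE 1.09, adjusted p = 9.5e-05) in the edgeR fit. The smallest rise was that of Serpinf1, at 3.13 (edgeR adjusted p = 0.0389). The largest of these values depend on how the fit treats sites at 0. All 14 calls ended without liver T426, where the values lay between -0.27 for Serpinf1 and 5.14; without the library labelled liver T3F and pancreas T173F, 14 serpins were again higher and 2 lower. By limma on log2(TPM + 1) 4 of the 14 calls held, and 10 ended, among them Serpina1a at 7.18 (adjusted p = 0.0764) and Serpinc1 at 6.75 (adjusted p = 0.0898). A replicate block for the animal ended the call of Serpinf1 at 3.49 (edgeR adjusted p = 0.0876).

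The proteases that these inhibitors act on were measured beside them. Of 15 tested plasma serine proteases of clotting, fibrinolysis, kallikrein and complement, 13 were higher at the liver site and 0 lower in the same edgeR fit. The shares of all genes were 8.08% and 0.478%. Levels at the liver site average liver T426 and the library labelled liver T3F, which held 130500 and 1062 TPM of hepatocyte markers. F9, a clotting protease, had a mean of 981 TPM there and Proc, the precursor of activated protein C, 1055. Of 26 tested inhibitors of other families, 11 were higher at liver and 0 lower, beside the same shares of all genes. Spink1, a trypsin inhibitor, stood at 6230 TPM there. Agt, the angiotensin precursor, which has the serpin fold under another symbol, was higher by 5.66 at liver (edgeR adjusted p = 0.000766). It was also higher at hippocampus by 3.93 (edgeR adjusted p = 0.00798) and in brain by 3.81 (edgeR adjusted p = 3.23e-05). In inguinal fat its level was 170% of that in liver T426. The calls of these proteases and inhibitors and of Agt were not repeated without liver T426.

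At the renal pelvis, 12 serpins were higher by edgeR, beside 5.73% of all genes, and 0 were lower, beside 0.826%. The serpin median difference of 2.06 on the log2 scale stood beside -0.01 over all genes. Serpina1a was at 5297 TPM in T426 and 193.3 in T173F, Serpinc1 at 917.3 and 2.231, and Serpina6 at 422.3 and 0. Serpina3n, an acute-phase inhibitor of the antichymotrypsin group, was at 1549 and 1290 TPM, and Serping1 at 500.5 and 800.8. The plasma serpins were thus high in a single renal pelvis library, which also held the hepatocyte markers, whereas Serpina3n and Serping1 were high in both.

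Serpina3n rose at the renal pelvis by 4.56 on the log2 scale (SE 0.72, edgeR adjusted p = 0.00116), and this call held without T426 at 4.35 (edgeR adjusted p = 0.0214). The other 11 calls ended without T426. Serping1 (2.17, edgeR adjusted p = 0.0339) was then at 2.42, and its call also ended without each of 11 other libraries in turn, and that of Serpina11 (7.58, edgeR adjusted p = 0.0391) without each of 14. By limma 4 serpins were higher, and the share of all genes was not counted there. Without T426, Serpina6 was at -4.72, Serpina11 at -2.13, Serpinc1 at -1.08, Serpina3m at -0.90, Serpind1 at -0.46 and Serpina10 at -0.08. With the animal as a replicate block 5 serpins were higher, and the edgeR calls of Serpina1a (4.92), a3c (6.56), a6 (5.92), a10 (5.42), a11 (5.50), Serpinc1 (4.48), Serpinf2 (5.21) and Serping1 (1.98) ended.

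Liver-enriched serpins and hepatocyte markers were therefore set side by side as percentages of their level in liver T426. Over 11 serpins (Serpina1a, a1b, a3c, a3f, a3m, a6, a10, a11, Serpinc1, Serpind1 and Serpinf2), the library labelled lung T3F had a median of 88.35% (52.36 to 121.5%), beside 131.9% for 11 hepatocyte markers. In renal pelvis T426 the medians were 20.5% and 20.65%, and in cornea 5.38% and 7.47%. In the library labelled liver T3F they were 0.934% and 1.226%. In these 4 libraries the serpin median lay within 1.5 times of the marker median. The 11 were chosen because liver T426 exceeded every other organ's mean by 4 times or more. Serpins high in another organ were left out, so the likeness in renal pelvis and cornea is in part set by that choice. A wider set of 17 serpins had at least 10 TPM in liver T426 and the library labelled lung T3F. Its medians were 21.32% in renal pelvis T426, 5.576% in cornea and 1.046% under the label liver T3F. Its highest member, Serpina3g, stood at 898.5%, 619.4% and 1401%.

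The kidney cortex did not follow this pattern for 2 of the 11. There Serpinf2 reached 273.5 TPM, 51.44% of liver T426, from 3505 expected counts, and Serpinc1 reached 522 TPM, 10.98%, from 3668 counts. The median of the 11 serpins was 0.0267%, and that of the hepatocyte markers 0.0307%, with the highest marker, Cyp2e1, at 5.409%. In kidney medulla the levels were 33.19 TPM for Serpinf2 and 16.55 for Serpinc1. The kidney cortex had a single library and so no test.

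**Figure D3:**
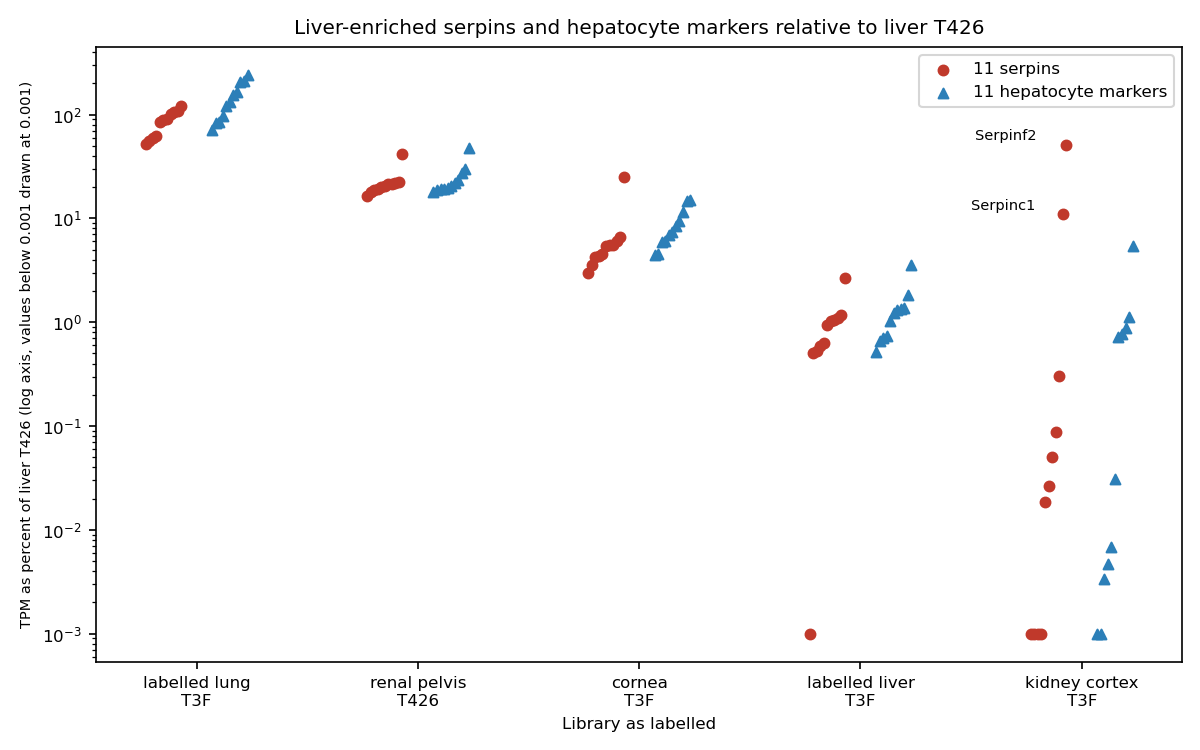
Level of 11 liver-enriched serpins (circles) and 11 hepatocyte markers (triangles) in 5 libraries, as a percentage of liver T426 on a log axis, with values below 0.001 drawn at 0.001. The serpins were chosen for a level in liver T426 of at least 4 times each other organ's mean. Serpins and markers lie at a like height in the first 4 libraries. In kidney cortex Serpinf2 (51.44%) and Serpinc1 (10.98%) stand above all 11 markers.

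Serpina1a also appeared in libraries with few hepatocyte transcripts. It reached 1020 TPM in ovary T173F, which is 4.104% of liver T426, while the hepatocyte markers had a median of 0.00616% there. It reached 943.4 TPM in trachea (3.798%, beside 0.0719% for the markers) and 420.7 TPM in uterus (1.694%, beside 0.00637%). In rectum the level was 516.7 TPM (2.08%, beside 0.0794%), but the highest marker there was at 5.563%, above Serpina1a. The highest marker was at 0.295% in ovary T173F, 0.1731% in trachea and 0.08837% in uterus. The other ovary library, of T3F, had 11.55 TPM, so ovary differed between the animals, and trachea, uterus and rectum have 1 library each.

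Several other members had their highest levels away from liver. Serpinf1 was highest in mesentery at 5193 TPM and inguinal fat at 4818, followed by the adrenal library labelled adipose at 3270. Brown fat had 239.6 TPM, less than trachea (876.3) or uterus (757.6). Serpina3n was highest in trachea at 2955 TPM and reached 1876 in the Harderian gland, a lipid-secreting gland behind the eye. Serpina3b was at 3809 TPM in the Harderian gland from 12519 expected counts, and the next library, bladder, had 112.7. Serpina12 (vaspin, a kallikrein inhibitor known from fat) was at 198.6 TPM in non-glandular stomach and 178.4 at the esophageal junction, against 21.14 in mesentery and 14.45 in inguinal fat. Serpina3g, of the antichymotrypsin group, was at 1 TPM or more everywhere, with a median of 101.9 TPM and its highest levels, 447.2 and 439.9 TPM, under the label liver T3F and in the renal pelvis of T173F.

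Stratified epithelia carried a set of clade B serpins. The comparison set the mean of cornea, esophageal junction and non-glandular stomach, each with 1 library of T3F, against the mean of all other sites. Serpinb3a, which inhibits lysosomal cysteine proteases and is known as a squamous carcinoma antigen, was at 1180 TPM at the esophageal junction, 855.4 in non-glandular stomach and 19.3 in cornea, and at most 8.697 in the other 56 libraries. Serpinb12 was at 959.3 and 849.6 TPM in the first 2 and listed at 0 in cornea, with at most 9.6 elsewhere. Serpinb5 (maspin, which does not inhibit proteases by the usual route) had the opposite order, with 66.56, 98.57 and 374.3 TPM. Cornea thus shared Serpinb5 with the other 2 sites but had little Serpinb3a. Serpinb5 overlapped with gut libraries. It was at 120.3 TPM in ileum, above the junction and non-glandular stomach, and at 83.69 in cecum, above the junction.

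Another 4 clade B members were high in these libraries. Serpinb11 was the most even, at 137.5 TPM at the esophageal junction, 146.7 in non-glandular stomach and 112.4 in cornea. Serpinb2, an inhibitor of urokinase, was at 206.3, 237 and 45.82 TPM in that order. Serpinb8, which inhibits furin-type proteases, was at 91.77, 125.5 and 60.18 TPM, and Serpinb7 at 39.63, 48.58 and 0.4285. Cornea was the lowest of the 3 for each of them. All 4 overlapped with other libraries, Serpinb2 with cerebellum (143.8), Serpinb8 with kidney medulla (121.6), Serpinb11 with ovary T173F (137) and Serpinb7 with bladder (11.56).

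In the edgeR model of all sites, 11 of 43 tested serpins were higher in stratified epithelium, beside 5.38% of all 18323 genes, and 0 were lower, beside 0.191% (0 also at an unadjusted p below 0.05, and 0 by limma). The serpin median was 1.16 on the log2 scale against -0.01 over all genes. Serpinb3a rose by 12.90 (SE 0.41, adjusted p = 1.91e-10), Serpinb11 by 10.24 (SE 0.71) and Serpinb5 by 8.54 (SE 0.55, adjusted p = 3.44e-07) by edgeR. Serpinb7, b2, b3b, b8 and b13 rose by 4.45 to 8.49, as did 2 clade A members, Serpina12 by 8.01 and Serpina9 by 7.86. Serpinb1a, an elastase and cathepsin G inhibitor, rose by 2.22 (edgeR adjusted p = 0.048).

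Serpinb12 had no usable error in that fit, as had 12 other serpins, because many sites were at 0. In limma on log2(TPM + 1) it rose by 6.36 (adjusted p = 2e-08), and 12 serpins were higher, beside 3.11% of all genes, and 0 lower, beside 1.62%. The edgeR call of Serpinb1a ended in limma and without each of the 3 epithelium libraries. With the animal as a replicate block, the edgeR calls of Serpina9 (8.35), Serpina12 (7.20) and Serpinb1a (1.94) ended. Sites with a single library were assumed to vary like the replicated ones.

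Markers of keratinocytes and stratified epithelium summed to 55830 TPM at the esophageal junction, 38210 in non-glandular stomach and 37440 in cornea, with all 8 at 1 TPM or more in each. Of 14 tested epithelial surface proteases, 9 were higher in the 3 sites, beside 5.38% of all genes, and 0 lower, beside 0.191%. Tmprss11a, an airway-type membrane protease, rose by 8.31 (edgeR adjusted p = 0.000208). Its highest levels lay outside these sites, at 1023 TPM in rectum and 646.5 in trachea. Of 26 inhibitors of other families 6 were higher, beside the same 5.38%. Over the means of 48 sites, the gene most like Serpinb12 in log2(TPM + 1) was Sprr3, a cornified envelope gene, with a Pearson r of 0.976. For Serpinb3a it was Foxe1 (0.955) and for Serpinb5 Pof1b (0.951), as descriptions over sites that share animals and library preparation.

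**Figure D4:**
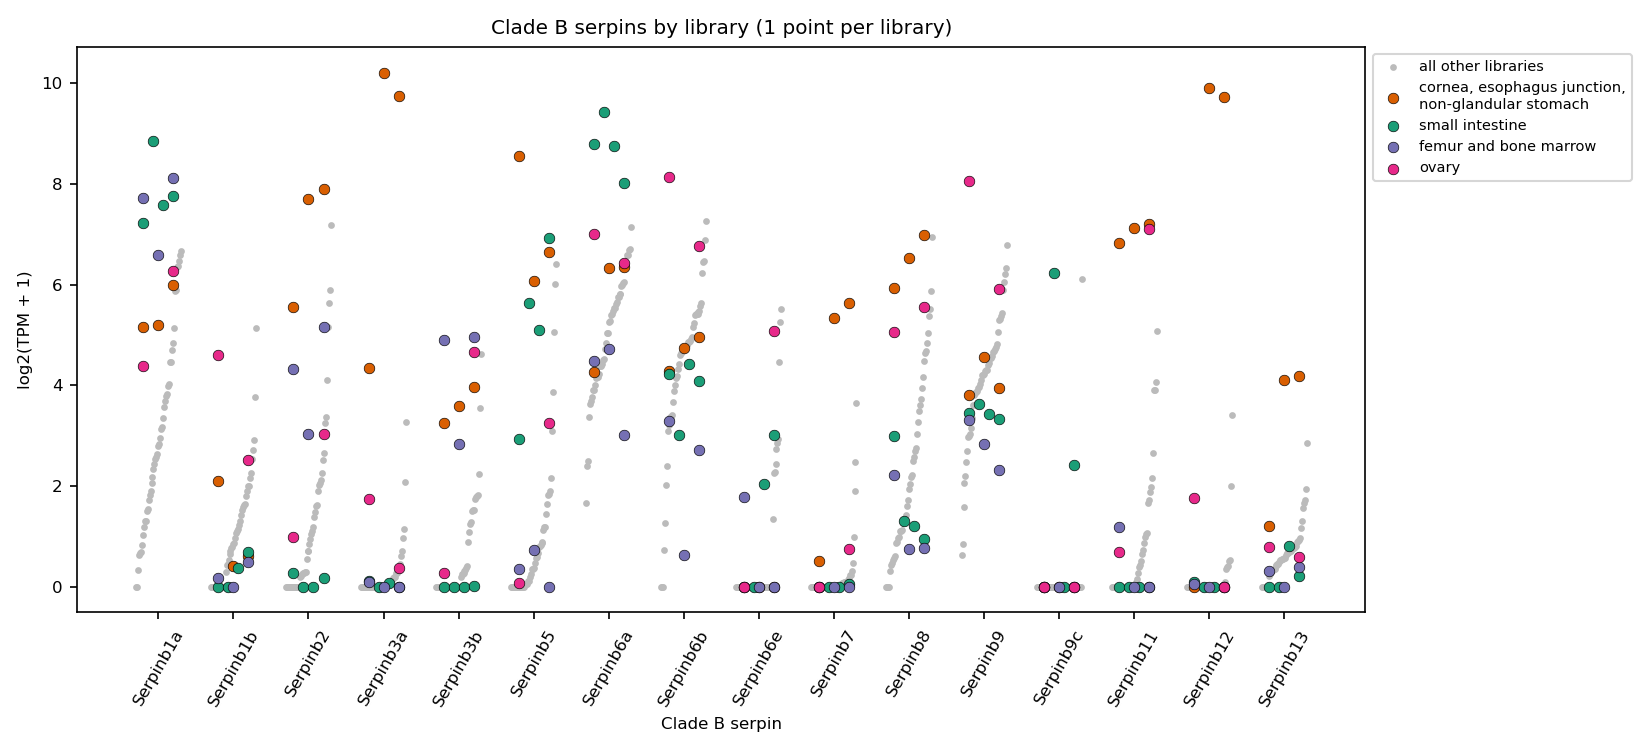
Level of each of the 16 clade B serpins as log2(TPM + 1), with 1 point per library: stratified epithelium, small intestine, femur and bone marrow, and ovary in colour, the other libraries in grey. Serpinb3a and Serpinb12 separate the esophageal junction and non-glandular stomach, Serpinb6a and Serpinb1a are high in small intestine, and Serpinb1a is high in marrow.

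In femur, 3 of the called serpins were of clade B. Serpinb1a had 208.5 TPM in the femur of T3F, 94.76 in that of T426 and 276.5 in bone marrow. Serpinb2 was at 18.97, 7.162 and 34.52 TPM, and Serpinb3b at 28.8, 6.114 and 30.15. Serpinb2 was higher than in marrow in rectum (58.31) and thymus (48.41) as well as in the stratified epithelia and cerebellum, and Serpinb3b was at 23.54 TPM in spleen. In femur 5 serpins were higher by edgeR, beside 9.72% of all genes, and 0 lower, beside 0.518%. Serpinb1a rose by 4.94 (SE 0.68, adjusted p = 0.000199), Serpinb2 by 5.25 (SE 1.08, adjusted p = 0.00581) and Serpinb3b by 7.93 (SE 1.14, adjusted p = 0.00161) in the edgeR fit.

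Femur differed between its animals for the other called serpins. Serpina3n had 511 TPM in the T3F library and 2.818 in that of T426, and Serpinf1 was at 991.3 and 61.43. Without femur T3F, Serpina3n was at -1.95 on the log2 scale, and its call and that of Serpinf1 ended. Serpinf1 also ended without sciatic nerve T426 or ovary T3F. A replicate block for the animal ended Serpinf1 (2.71, adjusted p = 0.0952) and Serpina3n (2.78, adjusted p = 0.111) in edgeR. Granule serine proteases of leukocytes rose with the clade B members: 8 of 10 tested were higher in femur, beside 9.72% of all genes. Ctsg, which Serpinb1a is known to inhibit, rose by 14.24. Elane, which Serpinb1a and Serpina1a are known to inhibit, rose by 14.12.

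In duodenum, Serpinb6a (an inhibitor of cathepsin G and other serine proteases) was at 440.1 TPM in T3F and 683.9 in T426, with 429 in jejunum and 259 in ileum against 49.19 in colon. Serpinb1a was at 148.5 and 461.4 TPM, and Serpinb5 at 6.634 and 48.32, below its 374.3 in cornea. The 2 duodenum libraries thus lay on the same side for Serpinb6a and Serpinb1a. By edgeR 4 serpins were higher in duodenum, beside 8.33% of all genes, and 0 lower, beside 0.632%: Serpinb6a by 3.80 (SE 0.62, adjusted p = 0.000843), Serpinb1a by 5.24 (SE 0.67), Serpinb5 by 7.08 (SE 0.97) and Serpini2 by 5.33 (SE 1.31). Serpini2 was at 46.95 TPM in T3F and listed at 0 in T426; it was at -6.12 without duodenum T3F, lost its call without retina T3F too, and ended with the animal as a replicate block at 4.23 (edgeR adjusted p = 0.0771).

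In ovary, Serpinb9, the inhibitor of granzyme B, was at 265.6 TPM in T3F and 59.38 in T173F, and Serpinb6b at 281.2 and 107.1. Serpinb6b was the most abundant serpin of the T3F library and Serpina1a that of T173F. Serpinh1, the collagen chaperone, was at 214 and 180.3 TPM. Serpinb11 was at 137 TPM in T173F from 660 expected counts and at 0.6144 in T3F from 5, and Serpinb3b at 24.38 and 0.2126. These last 2 were thus high in T173F alone, the library that also held 1020 TPM of Serpina1a.

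By edgeR 5 serpins were higher in ovary, beside 3.57% of all genes, and 0 lower, beside 0.108%: Serpinh1 by 2.38, Serpinb9 by 2.69, Serpinb6b by 3.08, Serpinb3b by 5.53 and Serpinb11 by 7.97, with adjusted p from 0.00476 to 0.0451. The edgeR call of Serpinb9 ended without ovary T3F and that of Serpinb11 without ovary T173F. Those of Serpinb6b, Serpinb3b and Serpinh1 ended without each of 13, 11 and 12 of the 20 libraries in turn. The replicate block for the animal ended Serpinb3b (1.18), Serpinh1 (2.01) and Serpinb11 (2.87) too.

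In brain, 7 serpins were called against all other sites. Serpini1 (neuroserpin, which inhibits tissue plasminogen activator) ran from 77.18 TPM in spinal cord to 176.8 in caudal cortex over 9 brain libraries, with 171.3 and 167.5 in the hippocampus of T3F and T426. Outside the sites labelled brain its highest level was 60.48 TPM, in midbrain, which the labels place with eye, and the retina libraries had 41.9, 42.65 and 29.53. The brain libraries did not overlap with the other 50. Serpini1 rose by 4.22 on the log2 scale (SE 0.42, edgeR adjusted p = 9.65e-07).

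Serpine2 (protease nexin, a thrombin and urokinase inhibitor) ran from 153.5 to 256.2 TPM in the brain libraries, against a median of 38.6 elsewhere, and its highest level was 614.8 in the retinal pigment epithelium library. Serpine3 stood between 1.559 and 2.304 TPM in brain and at 25.93 in pigment epithelium. Both overlapped with the other libraries. In the edgeR fit Serpine2 rose by 1.90 (SE 0.41, adjusted p = 0.00193) and Serpine3 by 2.48 (SE 0.40, adjusted p = 0.000179).

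A further 4 serpins were lower in brain by edgeR. Serping1 stood between 7.732 and 20.9 TPM against a median of 125.5 elsewhere and fell by 4.01 on the log2 scale (SE 0.47, adjusted p = 5.6e-06). Serpinh1 stood between 4.716 and 8.78 TPM against a median of 41.95 and fell by 3.22 (SE 0.49). Serpinb6a fell by 1.71 (SE 0.48, adjusted p = 0.011). It ran from 13.89 TPM in caudal cortex to 40.92 in hippocampus T426, and its median over all 59 libraries was 40.92. Serping1 and Serpinh1 overlapped with the lowest of the other libraries, and Serpinb6a overlapped with more of them.

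These were 3 higher calls, beside 22.1% of all genes, and 4 lower, beside 7.97%. The serpin median was -1.11 on the log2 scale against 0.02 over all genes. In limma on log2(TPM + 1) there were 2 higher and 7 lower calls, beside 24.7% and 9.86%: Serpine3 ended at 0.87, and Serpinf1 (-2.88), Serpinb1a (-2.68) and Serpinb5 (-1.23) were added. For 28 of the 43 serpins the edgeR fit gave no usable error. Neuron markers summed to 5004 and 4148 TPM in the 2 hippocampus libraries.

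**Figure D5:**
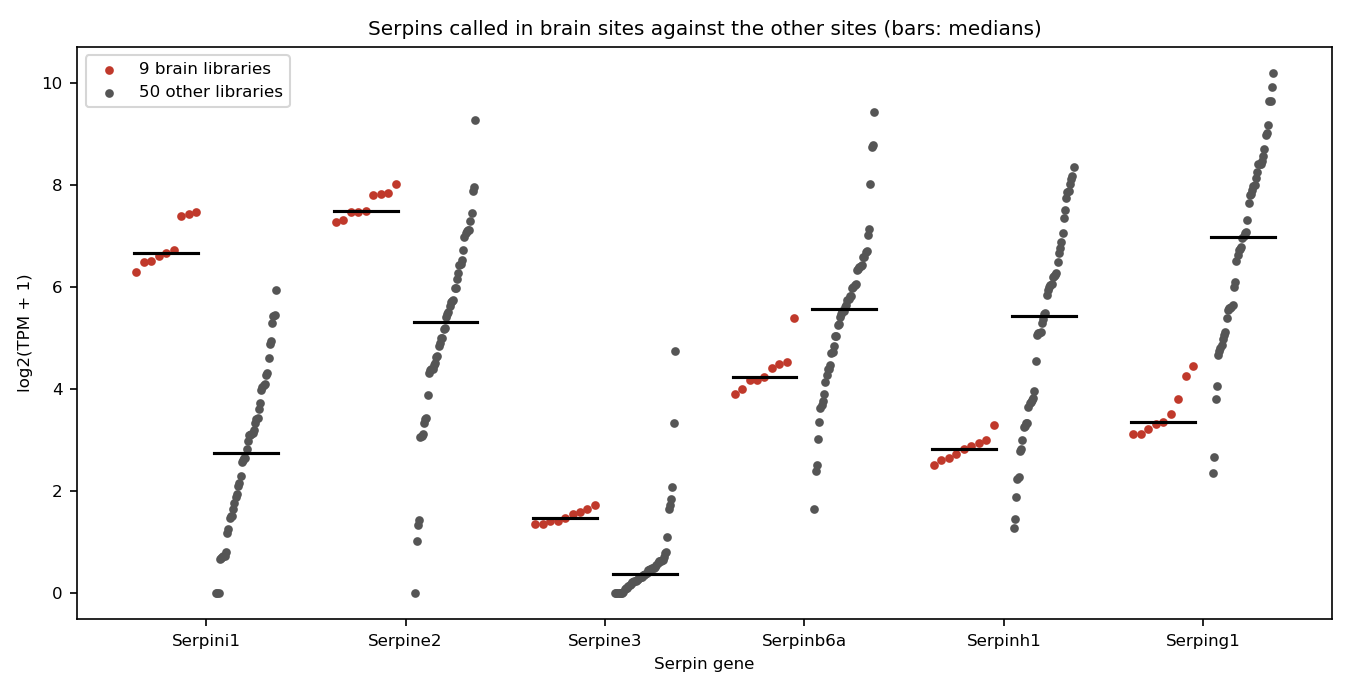
Level of 6 of the 7 serpins called in brain as log2(TPM + 1), with 1 point per library, for 9 brain libraries (left) and 50 others (right), and bars at the medians. For Serpini1 every brain library lies above every other library, and for the other 5 serpins the ranges overlap.

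Hippocampus and retina, the replicated neural sites, were compared with the other replicated sites. In hippocampus 3 serpins were higher by edgeR, beside 12.9% of all genes, and 1 was lower, beside 2.06%. Serpini1 rose by 4.07 (SE 0.74, adjusted p = 0.00121), Serpine3 by 2.94 (SE 0.84) and Serpinb11 by 5.94 (SE 1.27), while Serping1 fell by 3.77 (SE 0.95). Serpinb11 was at 13.9 TPM in T3F from 110 counts and 13.97 in T426 from 24 counts, and at most at 3.439 in the other brain libraries. The call of Serpinb11 ended without hippocampus T3F, at a like 5.81 (edgeR adjusted p = 0.0587). That of Serping1 ended without either hippocampus library, at -3.28 without T3F and -4.48 without T426. The edgeR call of Serpine3 ended without each of 8 of the 20 libraries in turn. DESeq2 called 7 serpins lower in hippocampus, where its share of all genes was not counted. Cerebellum held 143.8 TPM of Serpinb2 from 693 counts, where no other brain library exceeded 4.691.

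In retina 5 serpins were lower by edgeR, beside 4.12% of all genes, and 0 higher, beside 17.0%. Serpina3n was at 1.661 and 1.532 TPM in the left and right retina of T3F and 0.8311 in T426, and fell by 6.37 (SE 1.63). Serpinb1a was at 0.607, 0.54 and 0.255 TPM and fell by 5.99 (SE 1.51). Serpina3g fell by 3.97, Serpinb9 fell by 3.45 and Serpinh1 fell by 3.36. The serpin median was -2.77 on the log2 scale against 0.14 over all genes. All 5 edgeR calls ended without retina T3F, and those of Serpina3n, Serpinb1a, Serpinb9 and Serpinh1 also without retina T426. The differences changed little except for Serpinh1: Serpina3n was at -6.63 and -6.23 without T3F and T426, Serpinb1a at -6.41 and -5.79, Serpinb9 at -3.58 and -3.35 and Serpinh1 at -4.56 and -2.74, and Serpina3g at -3.43 without T3F. DESeq2 called 13 serpins lower in retina, and without the library labelled liver T3F and pancreas T173F edgeR called 8 lower and 2 higher. The share of all genes was not counted in either setting, so these counts cannot be read as particular to serpins. The call of Serpinb1a ended without pancreas T3F as well. Of 7 tested cysteine cathepsins, 4 were also lower in retina.

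Serpini2, known as pancpin, was highest in pancreas. It was at 724.6 TPM in pancreas T3F, which held 391500 TPM of acinar markers. In pancreas T173F, a library of 1573234 counts with 1553 TPM of acinar markers, it was at 15.05 TPM. By edgeR it rose by 13.68 (SE 1.35, adjusted p = 2.04e-05), and the call held without either pancreas library, at 7.18 without T3F and 14.67 without T173F. In pancreas 4 serpins were higher, beside 12% of all genes, and 0 lower, beside 1.01%. By limma on log2(TPM + 1) 1 was higher and 10 were lower. The share of all genes was not counted by limma there, so these 10 cannot be read as particular to serpins. Serpinb1b was at 34.24 TPM from 26 counts in T173F and listed at 0 in T3F, and Serpinb8 at 23.9 from 23 counts and 0.4753. Serpina6 was listed at 0 in T173F and at 5.413 TPM in T3F. These 3 were each present in a single pancreas library at more than 1 TPM.

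Their calls turned with the library. Serpinb1b was called at 7.35 and was at -3.86 without pancreas T173F, Serpina6 was called at 6.03 and was at -4.92 without pancreas T3F, and the call of Serpinb8 at 3.91 ended without T173F. With the animal as a replicate block the edgeR calls of Serpinb1b (5.85, adjusted p = 0.363) and Serpinb8 (3.21, adjusted p = 0.247) ended.

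Serpini2 was also called at skeletal muscle, sciatic nerve and duodenum, where acinar transcripts were present. Per 1000 TPM of summed acinar markers it stood at 1.851 TPM in pancreas T3F, 1.406 in sciatic nerve T426, 1.962 in muscle T3F, 1.895 in colon and 1.057 in sciatic nerve T3F. In duodenum T3F it stood at 239.9, from 681 counts of Serpini2 beside 195.7 TPM of acinar markers. In pancreas T173F it stood at 9.691, from 34 counts. The ratio was thus close in pancreas T3F, muscle T3F and colon, higher in the other pancreas library, and highest in duodenum T3F. The gene most like Serpini2 over the 48 site means was Gm10334 (r of 0.931). All 7 tested digestive proteases of the pancreas were higher at pancreas, beside 12% of all genes, and 6 of 7 at sciatic nerve, beside 4.94%.

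At the sciatic nerve 3 serpins were higher by edgeR, beside 4.94% of all genes, and 0 lower, beside 0.125%. Serping1, at 794.8 TPM in T3F and 1168 in T426, rose by 3.22 (SE 0.53, adjusted p = 0.00183). Serpinf1 was at 1815 and 651.5 TPM and rose by 3.80 (SE 0.85, adjusted p = 0.0148), a call that ended without sciatic nerve T3F. Serpini2 was at 5.556 and 110.9 TPM and rose by 6.09 (SE 1.31), which ended without T426. In skeletal muscle Serpini2 was the only serpin called, by edgeR at 5.44 (SE 1.32), beside 6.19% of all genes higher and 0.991% lower. That call ended without muscle T3F or retina T3F, and with the animal as a replicate block at 4.43 (edgeR adjusted p = 0.0688).

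Serping1 and Serpinh1 were found in every library. The gene most like Serping1 over the 48 site means was C1ra (r of 0.926), the complement protease that the C1 inhibitor blocks. For Serpinh1 it was Hspg2, a basement membrane proteoglycan (0.924), and the median r of Serpinh1 with 18 genes of collagen chains and folding was 0.759 against 0.102 over 18296 genes. Serpinh1 was highest in inguinal fat at 324 TPM and lowest in retina T426 at 1.421. Of the 18 collagen genes, 10 were lower in brain, beside 7.97% of all genes, and 1 higher, beside 22.1%, and 6 were higher at sciatic nerve, beside 4.94%. Among plasma serpins, the most like gene was C9 for Serpina11 (0.994), Mbl1 for Serpina6 (0.977) and Hrg for Serpinc1 (0.961), all of which encode plasma proteins. For Serpinf2 it was Cyp2c68 (0.939) and for Serpina1b Gstp3 (0.908), genes of intracellular enzymes.

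The 2 animals with the most shared sites were compared last. Over the 7 sites of T426 and T3F, with site as a block, 0 of 32 tested serpins were higher in T426, beside 0.675% of all 17025 genes, and 0 were lower, beside 0.0764%. At an unadjusted p below 0.05 there were 5 higher and 3 lower. DESeq2 called Serpinc1 higher, at 2.81 (adjusted p = 0.04), and 2 lower, among them Serpinh1 at -1.46 (adjusted p = 0.00709). Its share of all genes was not counted. The liver pair sets liver T426 against the library labelled liver T3F, with 130500 and 1062 TPM of hepatocyte markers. Serpinc1 was at 4755 and 29.91 TPM in these libraries, so its call cannot be told apart from unlike tissue. Depth differed too, since no T426 library had more than 3827321 counts and no T3F library fewer than 12693819.

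Of the 47 serpins, 5 never reached 10 expected counts in a library: Serpina1f, Serpina3j, Serpina16, Serpinb6e and Serpinb9c. Short or rarely sequenced transcripts can still show a high TPM, as Serpina16 did in hippocampus T426, with 105.6 TPM from 2 counts. These 5 enter the counts of tau and of organ-enriched serpins, the number and sum of serpins per library, and the figures of all sites and of clade B. In retina T426, Serpina16 made up 84.53 TPM of the serpin sum of 400.1. Otherwise no level of these 5 is read. Serpina7, the thyroxine carrier, reached at most 8.577 TPM, and Serpina1e at most 18.17.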

How the data were processed

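The 59 libraries hold polyadenylated RNA of untreated tissue, prepared with an Illumina TruSeq protocol for paired-end reads, per the labels. The authors deposited expected counts, estimated counts per gene of which 54.76% were whole, and, in a second table, TPM for the same 18970 genes; every TPM column summed to 1000000. RSEM (version not given) and Bowtie 0.12.8 are named, per the submitters' processing notes, and the genome or transcript build is not given in the sources used here. All columns could be tied to a library by its title, so 0 were left over. RefSeq (assembly mArvNil1.pat.X) was matched by symbol and used for names and gene order alone; no gene or protein sequence is used here.

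Libraries were grouped by site, organ and animal from their labels. Left and right retina of T3F come from a single animal; their counts were added for tests and their TPM averaged. Expected counts, rounded to whole numbers, were tested across all genes in edgeR 4.0.16 (R 4.3.3), by its quasi-likelihood method, after TMM scaling and filterByExpr, with Benjamini-Hochberg adjustment. A call needs an adjusted p below 0.05 and, for a contrast, a log2 difference of 1 or more in size. The 10-site fit had 20 libraries and 10 residual degrees of freedom; the model of all 48 sites had 58 libraries and 10, since 38 sites have 1 library and are assumed to vary like the others. Alternatives were DESeq2 1.42.0, limma 3.58.1 on log2(TPM + 1), RLE size factors, no filter, the animal as a replicate block, each library left out, a reduced set (without pancreas T173F and the library labelled liver T3F) and a strict set (also without the renal pelvis, sciatic nerve, femur, hippocampus and retina of T426). Limma for brain, stratified epithelium and the animals was added after the data were seen. Among these alternatives, shares of all genes were counted for limma in brain and stratified epithelium alone. Counts of calls in the other alternatives therefore have no such share beside them. The tests were tried on simulated data.

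Replicates are different animals, and the block is the animal named in the title. Fold values of genes near 0 at many sites depend on the prior count. A level that rests on 3 counts or fewer is taken as no more than nothing.

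Any serpin could be named, and from the other lists the 2 to 4 genes of highest mean TPM and, for serpins with a site mean of at least 10 TPM, the most correlated gene over site means. For 1 serpin, counted in the totals, results are not reported here. Cyp2e1 was named after its value was seen. The members, lists and library sets were chosen with earlier results of these data known.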

Additional observations from a re-analysis of the deposited data

Results flagged for a closer look

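Serpinb6a, the cathepsin G inhibitor that was lower in brain, had 40.92 TPM in the hippocampus library of T426, whereas the other 8 brain libraries lay between 13.89 and 21.93 TPM, among them the hippocampus of T3F. The gap between this library and its nearest neighbour exceeded the critical value of Dixon's outlier test for 9 libraries. It was the only such value among the 7 serpins called in brain; chance alone gives such a gap in about 5% of groups. The library held 44620 TPM of germ cell markers against 110.1 in hippocampus T3F, and the part of this in the level was not tested. The brain call of Serpinb6a held without this library.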

How the results depend on the processing

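Counts over all sites that moved by over 1.5 times came first. Higher serpin and site pairs numbered 21 by limma against 51, and lower pairs 27 by DESeq2, 15 by limma, 15 in the reduced set and 17 in the strict set against 6. Lower serpins in brain numbered 7 by limma against 4. DESeq2 called 1 serpin higher and 2 lower in T426 against 0 and 0 by edgeR. Organ-enriched serpins numbered 19 at a minimum ratio of 2, 3 at 8 and 18 without the 3 libraries named above, against 7. Serpins with a tau of at least 0.9 numbered 11 among those with 10 expected counts in a library, against 15. Leaving out 1 library at a time gave 38 to 61 higher pairs (51 with all), 1 to 9 lower pairs, the 1 without retina T3F, and 22 to 26 serpins differing among the sites. In brain all such fits gave 3 higher and 4 lower calls, in stratified epithelium 10 to 12 higher and 0 lower, and over the animals 0 higher and 0 to 2 lower, the 2 without the liver pair. The cause was not tested for any of these.

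Single sites moved too. Higher calls by limma numbered 4 at liver (against 14), 4 at renal pelvis (12), 2 in femur (5), 2 in ovary (5), 1 in pancreas (4) and 0 in muscle (1). In the strict set they numbered 2 at renal pelvis, 2 in pancreas and 2 in muscle, and in the reduced set 5 in hippocampus (3), 6 at sciatic nerve (3), 2 in retina (0) and 2 in muscle. DESeq2 gave 3 in ovary and 0 in muscle, RLE 2 and the strict set 1 in retina. With the replicate block they numbered 5 at renal pelvis, 3 in femur, 2 in ovary, 2 in pancreas, 0 in muscle, 5 at sciatic nerve and 1 in retina. Lower calls by DESeq2 numbered 13 in retina (5), 7 in hippocampus (1), 3 in duodenum (0), 2 in muscle (0), 1 at sciatic nerve (0) and 1 in ovary (0), and by limma 10 in pancreas (0), 3 in retina and 2 in hippocampus. The reduced set gave 8 lower in retina, 3 in hippocampus, 2 in duodenum and 2 at liver (0), the strict set 4 in duodenum and 2 each in hippocampus, liver, muscle and ovary, RLE 2 in hippocampus and the block 3.

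Of the 57 site calls, 47 held by DESeq2, 56 with RLE size factors, 57 without the filter, 54 in the reduced set and 24 by limma. With the animal as a replicate block there were 37 higher and 9 lower pairs, and 39 of the 57 calls held; 25 serpins differed among the sites, and 8 were higher in stratified epithelium. Serpinb1b (adjusted p = 0.185) and Serpinb8 (0.216) then no longer differed among the sites, whereas Serpinb6b (0.018) did, by edgeR. The block ended no other call than those named with it here and in the results, for brain none.

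Reversed values, as log2 differences, came from few libraries. In the strict set, where T173F stands for the renal pelvis, Serpina6 was at -5.15, Serpina11 at -2.40, Serpina3m at -1.01, Serpind1 at -0.69 and Serpina10 at -0.12. In pancreas, Serpinb1b was at -3.32 (reduced set) and -2.96 (strict set), and Serpina6 at -0.088 by limma. With 1 library left out, the values at the renal pelvis ran from -4.72 to 9.18 for Serpina6, -2.13 to 8.53 for Serpina11, -1.08 to 7.83 for Serpinc1, -0.90 to 7.35 for Serpina3m, -0.46 to 6.30 for Serpind1 and -0.079 to 7.39 for Serpina10. In pancreas they ran from -3.86 to 8.27 for Serpinb1b and -4.92 to 7.46 for Serpina6, in femur from -1.95 to 3.91 for Serpina3n, in duodenum from -6.12 to 6.36 for Serpini2 and at liver from -0.27 to 4.07 for Serpinf1. The reversals at liver and renal pelvis came without the T426 library, those in femur and duodenum without T3F, and those in pancreas without T173F for Serpinb1b and without T3F for Serpina6. Serpins under 10 counts cannot be read at this depth.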

Other observations

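Serpina5, the inhibitor of activated protein C and of sperm proteases, was highest in testis and cecum. It had 196.3 TPM in testis from 38 expected counts, 133 in retina T426 from 63 counts, 50.26 in hippocampus T426 from 20 counts and 7.674 in femur T426 from 8 counts, and it was listed at 0 in the retina, hippocampus and femur libraries of T3F. These T426 libraries held 120300, 44620 and 22510 TPM of germ cell markers. Sciatic nerve T426, with 1965 TPM of germ cell markers, had Serpina5 listed at 0. Cecum had 134 TPM of Serpina5 from 142 counts, the library labelled lung T3F 23.73 TPM beside 6.878 TPM of germ cell markers, liver T426 13.43 TPM and ovary T3F 11.63 TPM from 22 counts. Serpina9 had 7.757 TPM in testis, 9.473 in retina T426 and 6.253 in hippocampus T426, from 6, 18 and 10 counts, and 62.23 TPM at the esophageal junction.

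Several high values came from a single library and have no replicate. Serpina3a, of the antichymotrypsin group, was at 32.29 TPM in right atrium from 25 counts. Serpinb2 in cerebellum, Serpina3b in the Harderian gland and Serpinf2 and Serpinc1 in kidney cortex rested on 693, 12519, 3505 and 3668 expected counts, and the same site has no library of another animal here. Serpinb5 was at 120.3 TPM in ileum, 83.69 in cecum and 63.59 in rectum, beside 6.634 and 48.32 in duodenum.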
